A study of Mus musculus with 2 samples.

Results

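The ribosomal protein genes encode the protein part of the cytoplasmic ribosome. Their places of CTCF binding were taken from chromatin immunoprecipitation sequencing (ChIP-seq) of kidney tissue from newborn B6NCrl mice, aged 0 days. Members were the protein-coding genes of GENCODE M21 whose symbol is Rpl or Rps, a number and at most 1 of the letters a, x, y and l, plus Rplp0, Rplp1, Rplp2 and Rpsa. This gave 80 genes, 49 of the large subunit and 31 of the small subunit, of 21755 protein-coding genes on chromosomes 1 to 19 and X. The rule used names alone and no measured value.

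The study holds 2 ChIP-seq libraries with an antibody against CTCF, numbered biological replicates 1 and 2, in 1 group with no genotype or treatment contrast. Both carry the same biosample and donor identifiers, so differences between them may be technical. The authors deposited a relaxed list of 300000 peaks for each library and for both pooled, and 2 lists kept for reproducibility: the optimal list with 65482 peaks and the conservative list with 59444. The lists hold no read counts, so depth is unknown. Whole kidney mixes many cell types, and peak lists carry no expression with which to check the tissue label.

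CTCF is a zinc-finger protein that binds a long, directional DNA motif, stops cohesin at loop anchors and insulators, and also occupies many promoters. Ribosomes need matched amounts of nearly all ribosomal proteins, and these genes are transcribed at high rates in growing cells. Their promoters are known for start sites in a run of pyrimidines, which gives the mRNA the 5′ terminal oligopyrimidine tract read by the mTOR pathway. The newborn kidney is still forming nephrons and is rich in dividing cells.

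A promoter peak was an optimal-list peak whose summit lay within 1 kb of any annotated transcription start site (TSS) of the gene. Its strength is given as the percentile of the authors' peak signal within the optimal list, where 100 is the strongest. Of the 80 ribosomal protein genes, 49 (61.3%) had a promoter peak, against 39.4% of all protein-coding genes. Values of the family are set beside those of all protein-coding genes as a description, without a test. At 10 of them (12.5%) the highest promoter peak stood at percentile 90 or more, against 4.26% of all protein-coding genes. Of the 10, those described here are Rplp0, Rpl36, Rpl26, Rpl5, Rpl38, Rpl10a, Rps24 and Rps29.

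The DNA under these strongest peaks is shown to give the place of the CTCF motif match where one was found. A match is a stretch of 19 bases within 100 bp of the summit that passes a score reached by 1 in 10000 control positions, on a matrix learned from this study's own peaks. Its consensus, 5′ to 3′, was TGGCCACCAGGGGGCGCTA. Matches were found at 8 of the 10 genes (80.0%), against 84.1% of all genes at percentile 90 or more. The 7 shown here are printed from the GRCm38.p6 genome on the strand of the motif, with the match in capitals and 5 bases on each side.
Rplp0: gctccGACCCAGCAGAGGGCAGCAggtct
Rpl36: acctcCGGCCACCAGAGGTCGCCCgcagc
Rpl26: cctccGAGCCGCTAGATGTCGCTAaactc
Rpl5: tcctcCTACCGGCAGGGGGCGATAgcccg
Rpl38: aatctGAACCAGAAGAGGGCAGGGctgct
Rps24: tgaagGAGCCGCTAGATGGCGATCtagaa
Rps29: atttcACGCCAGTAGGTGTCAGTAgtgag

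The 19-base matches lay at chr5:115559287-115559305 (plus strand) for Rplp0, chr17:56613325-56613343 (plus) for Rpl36, chr11:68901462-68901480 (plus) for Rpl26 and chr5:107900462-107900480 (plus) for Rpl5. Those of the others lay at chr11:114668455-114668473 (plus) for Rpl38, chr14:24487124-24487142 (minus) for Rps24 and chr12:69159740-69159758 (minus) for Rps29. They equalled the consensus at 9 to 14 of the 19 positions. Of the 7, Rpl36 was the closest to the consensus, with 14 equal positions, and Rpl38 the farthest, with 9. Only the Rpl36 match also passed a stricter score, reached by 1 in 100000 control positions. With a matrix learned from all sequence, repeats included, the peaks of Rplp0, Rpl36 and Rpl38 held a match. Those of Rpl26, Rpl5, Rps24 and Rps29 held none with that matrix. The matches of Rpl26 and Rps24 share their first 13 bases, GAGCCGCTAGATG.

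For 4 of these genes the promoter itself is printed, to show how near to the start site the motif lies, together with Rpl11, whose peak stood just under percentile 90 and held no match. The sequences are RefSeq promoters on GRCm38.p6, up to 250 bases before the RefSeq start, on the strand of the gene, with any base at or after the GENCODE 5′ end left off. They are chr5:115559217-115559466 for Rplp0, chr11:68901316-68901565 for Rpl26, chr5:107900278-107900501 for Rpl5, chr11:114668330-114668523 for Rpl38, all on the plus strand, and chr4:136053429-136053643 on the minus strand for Rpl11. Capitals mark the CTCF match.
Rplp0: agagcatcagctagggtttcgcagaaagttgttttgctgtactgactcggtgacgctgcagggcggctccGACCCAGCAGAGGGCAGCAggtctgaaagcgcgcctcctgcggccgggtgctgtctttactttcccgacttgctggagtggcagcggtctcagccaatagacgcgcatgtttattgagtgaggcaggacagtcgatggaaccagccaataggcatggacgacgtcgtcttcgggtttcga
Rpl26: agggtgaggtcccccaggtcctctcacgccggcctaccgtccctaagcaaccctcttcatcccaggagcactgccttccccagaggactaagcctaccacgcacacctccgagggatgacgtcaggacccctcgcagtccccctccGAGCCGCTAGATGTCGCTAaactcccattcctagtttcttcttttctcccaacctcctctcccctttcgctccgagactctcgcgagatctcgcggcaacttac
Rpl5: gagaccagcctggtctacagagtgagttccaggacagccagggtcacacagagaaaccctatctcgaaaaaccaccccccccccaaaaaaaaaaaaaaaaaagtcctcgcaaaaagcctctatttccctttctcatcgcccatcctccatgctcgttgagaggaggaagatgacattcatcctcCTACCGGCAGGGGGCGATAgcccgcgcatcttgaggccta
Rpl38: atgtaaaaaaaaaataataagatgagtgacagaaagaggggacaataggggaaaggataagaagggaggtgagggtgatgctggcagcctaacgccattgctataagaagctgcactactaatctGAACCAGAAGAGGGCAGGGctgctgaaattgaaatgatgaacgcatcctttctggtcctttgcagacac
Rpl11: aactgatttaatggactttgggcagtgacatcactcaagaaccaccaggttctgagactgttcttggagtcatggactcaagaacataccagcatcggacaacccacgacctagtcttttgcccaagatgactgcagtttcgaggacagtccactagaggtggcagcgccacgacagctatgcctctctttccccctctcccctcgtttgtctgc

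The middle of the match lay 171 bp before the GENCODE 5′ end of the gene at Rplp0, 112 bp before it at Rpl26, 31 bp before it at Rpl5 and 60 bp before it at Rpl38. In all 4 the motif read in the direction of transcription. In the Rpl11 sequence, counted from 1 at its 5′ end, the summit fell on base 158. The best score within 100 bp of that summit was 9.45, under the threshold of 12.64. A score under the threshold says only that no stretch there resembled the matrix closely enough.

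The strongest promoter peak of the family was that of Rplp0, the base of the ribosomal stalk that recruits translation factors. It covered chr5:115559159-115559473, between genes, with its summit 144 bp upstream of the TSS, and stood at percentile 98.8 of the optimal list. An overlapping peak ranked 864 of 300000 in replicate 1 and 1072 in replicate 2. Both libraries thus held it among their strongest peaks.

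Rpl36, a large-subunit protein gene, followed at percentile 98.6, with a summit 78 bp upstream in chr17:56613186-56613486. Its overlapping peaks ranked 979 in replicate 1 and 1281 in replicate 2.

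Rpl26, whose protein sits beside the exit of the nascent chain, also stood at 98.4, with its summit 107 bp upstream in chr11:68901323-68901636. Its ranks were 2308 in replicate 1 and 788 in replicate 2, the single best library rank of any member. Rpl5, which joins Rpl11 and the 5S RNA in the particle that restrains Mdm2 when ribosome assembly fails, stood at 97.3. Its summit lay 20 bp upstream in chr5:107900348-107900623, with ranks of 1525 in replicate 1 and 2297 in replicate 2. Rplp0, Rpl36, Rpl26 and Rpl5 were all within the first 2308 peaks of both library lists.

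Further strong peaks stood between percentiles 94.3 and 92.5. Rpl38, whose loss in mice disturbs the axial skeleton, stood at 94.3, with its summit 37 bp upstream in chr11:114668331-114668622 and ranks of 2726 in replicate 1 and 4630 in replicate 2.

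Rpl10a, the protein of the mobile L1 stalk, stood at 93.6, with its summit 8 bp upstream in chr17:28328328-28328619. Its ranks were 9353 in replicate 1 and 1678 in replicate 2, the widest ratio among the strongest 10, and it had no match (best score 11.80). Rps24, a small-subunit protein gene mutated in human Diamond-Blackfan anaemia, an inherited failure of red cell production, stood at 92.6 in chr14:24486953-24487254 with its summit on the TSS, in an exon of Rps24 outside its annotated coding and UTR parts. Its ranks were 6080 in replicate 1 and 4288 in replicate 2. The other 9 summits of the strongest 10 lay between protein-coding genes.

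The Rps24 peak is shared: Polr3a, the largest subunit of RNA polymerase III, starts 67 bp away on the other strand, so the peak counts for both promoters. Rps29, a small-subunit zinc-binding protein and also a Diamond-Blackfan anaemia gene, stood at 92.5, with its summit 564 bp upstream in chr12:69159610-69159934. Its ranks were 8521 in replicate 1 and 2741 in replicate 2. Among the strongest 65482 peaks of a library, called its upper set, Rpl10a and Rps29 fell under percentile 90 in replicate 1 (85.7 and 87.0). Rplp0, Rpl36, Rpl26, Rpl5, Rpl38 and Rps24 stood at 90.7 or more in each library.

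**Figure D1:**
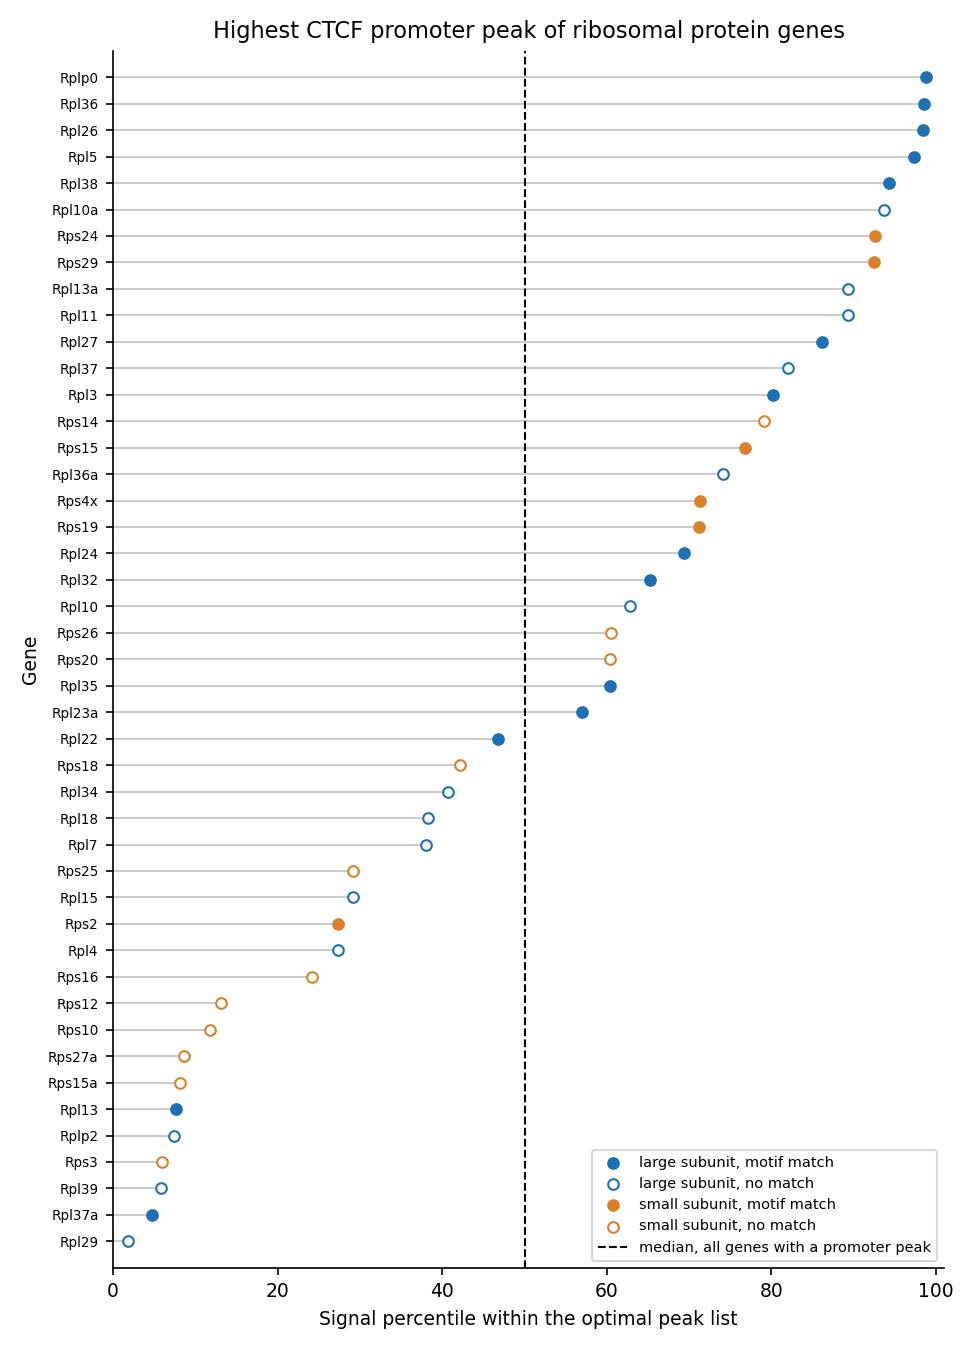
Signal percentile within the optimal peak list (x axis) of the highest promoter peak of 45 of the 49 ribosomal protein genes that have one (y axis, strongest at the top), coloured by subunit and filled where the peak holds a CTCF motif match. The points run from 98.8 at Rplp0 to 1.75 at Rpl29, and the dashed line marks the median of all protein-coding genes with a promoter peak, 50.1.

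Just below percentile 90 came Rpl13a, known for an interferon-linked role outside the ribosome, at 89.29, and Rpl11 at 89.28; both are close to the naming limit, and neither held a match. Rpl27 (86.1), Rpl37 (82.0) and Rpl3 (80.2) followed. Between 79.1 and 60.3 came, in falling order, Rps14, Rps15, Rpl36a, Rps4x, Rps19, Rpl24, Rpl32, Rpl10, Rps26, Rps20 and Rpl35. Rpl23a (57.0) and Rpl22 (46.8) stood in the middle of the list, and Rps18, Rpl34, Rpl18, Rpl7, Rps25, Rpl15, Rps2, Rpl4 and Rps16 between 42.2 and 24.2. The last 10 stood at 13.1 or less. Over the 49 genes the median percentile was 60.5, against 50.1 over all 8576 protein-coding genes with a promoter peak. The middle 50% of the members ran from 27.4 to 86.1, and that of all genes from 25.8 to 74.4. At percentile 50 or more stood 29 of the 80 members (36.3%), against 19.8% of all protein-coding genes.

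Large- and small-subunit genes gave similar counts. A promoter peak was found at 29 of 49 large-subunit genes (59.2%) and at 20 of 31 small-subunit genes (64.5%). The median percentile was 65.2 for the 29 large-subunit genes and 55.2 for the 20 small-subunit genes, and 7 large-subunit and 3 small-subunit genes stood at 90 or more. The quartiles of the 2 subunits overlapped widely, at 38.0 to 89.3 for the large and 21.4 to 77.3 for the small, and no test was made.

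The summits lay mostly before the nearest annotated start site, which can be one inside the gene. Of the 49 highest promoter peaks, 41 (83.7%) had their summit upstream of the nearest TSS, against 60.8% over all genes with a promoter peak. The window from 1 to 200 bp upstream held 23 (46.9%), against 33.8%, and the next window, up to 400 bp upstream, held 10 (20.4%), against 9.88%. Downstream of the TSS the shares were smaller: 4 of 49 (8.16%) fell on the TSS or within 200 bp after it, against 16.1%. The median signed distance was -107 bp, against -46 bp, where a minus sign is upstream. Not all upstream summits lay before the gene. Those of Rps14, Rpl3, Rpl24, Rps10, Rps2, Rps25, Rpl15, Rpl23a and Rps18 lay after the gene 5′ end, before an internal TSS. Between protein-coding genes lay 28 of the 49 summits. The shares upstream of the gene 5′ end were not computed over all genes.

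**Figure D2:**
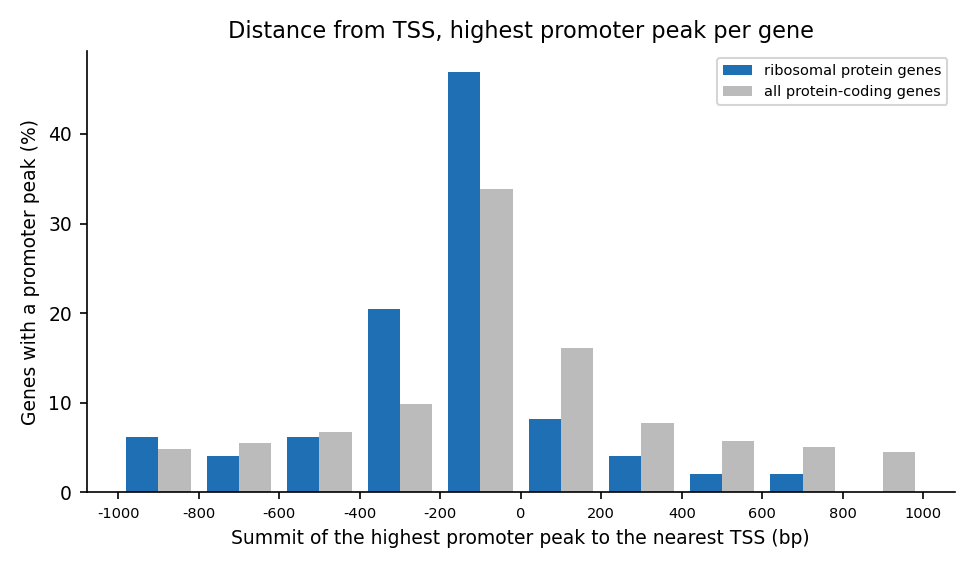
Share of genes with a promoter peak (y axis, %) by the distance from the summit of the highest promoter peak to the nearest TSS (x axis, bp, in steps of 200 bp, negative is upstream), for the 49 ribosomal protein genes (blue) and all 8576 protein-coding genes with such a peak (grey). The blue bars stand above the grey ones in the 2 windows up to 400 bp upstream and below them in every window downstream of the TSS.

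The shares are also given by strength. Among the 29 members at percentile 50 or more, 28 (96.6%) had a summit upstream of the nearest TSS, against 65.6% of all genes in that range. In 17 (58.6%) it lay 1 to 200 bp upstream, against 35.8%. Of the 28, the summits of Rpl3, Rps14, Rpl24 and Rpl23a lay inside the gene, before an internal TSS. Among the 20 members under percentile 50, 13 (65.0%) were upstream, against 56.0%, and 6 (30.0%) lay 1 to 200 bp upstream, against 31.8%. The weaker members were thus spread around the TSS much as those of all genes were. At percentile 90 or more, 7 of 10 members lay 1 to 200 bp upstream, against 45.7% of all genes in that range, with Rps29 and Rps24 among the 3 outside that window.

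Ribosomal protein genes have more annotated start sites, a median of 6 against 3 over all protein-coding genes, which gives more places where a summit can count. Measured from the 5′ end of the gene alone, 44 of 80 members (55.0%) had a promoter peak, against 31.3% of all genes. The 5 members that drop out, Rpl18, Rpl24, Rps10, Rps14 and Rps2, have their peaks only beside start sites inside the gene. Rpl3 kept a promoter peak at its 5′ end, but its highest one lay 11063 bp into the gene, beside an internal start site.

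**Figure D3:**
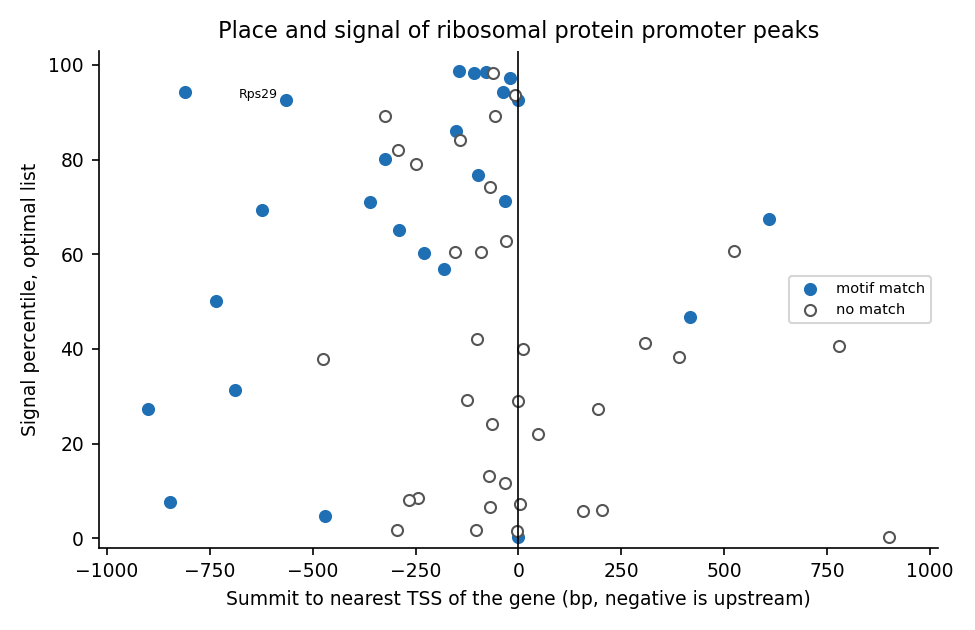
Signal percentile in the optimal list (y axis) of every ribosomal protein promoter peak against the distance from its summit to the nearest TSS of that gene (x axis, bp, negative is upstream), filled where a motif match was found. Each point is 1 of the 60 peaks; above percentile 90, 8 of 10 lie within 144 bp of the TSS, and Rps29, which is named, lies 564 bp upstream.

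The 80 genes had 60 distinct promoter peaks. A motif match was found in 25 of them (41.7%), against 40.7% of the 10898 promoter peaks of all protein-coding genes and 66.6% of all optimal peaks on these chromosomes. The family's peaks therefore held the motif at about the rate of promoter peaks in general. With the stricter score reached by 1 in 100000 control positions the share fell to 2 of 60 (3.33%), against 7.58%. With a matrix learned from all sequence, repeats included, it was 15.0%, against 12.6%.

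By strength, the shares with a match were close to those of all genes. Peaks with a match had a median percentile of 74.0 at 22 members, against 70.5 over all genes, and those without one had 38.2 at 27 members, against 36.4. At percentile 50 or more, 18 of 29 members (62.1%) had a match in their highest peak, against 62.7%, and under 50, 4 of 20 did, against 22.7%. Of the 25 matches, 17 (68.0%) lay on the strand of the gene, against 53.9% over all pairs of a gene and a matched promoter peak. As 14 of the 25 lie on the odd-numbered chromosomes from which the matrix was learned, they are not independent of it.

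Some of the matches lay in repeat sequence. Of the 25, 8 (32.0%) had most of their bases soft-masked, which marks annotated repeats of the genome, against 18.0% of matches in all promoter peaks. Their median percentile was 40.7, against 76.7 for the other 17, and over all promoter peaks with a match the medians were in the same order, at 41.0 for soft-masked and 69.1 for other matches. The stretch CAGAAGAGGGCA at positions 5 to 16 of the motif occurred at 6 members, among them Rpl38, Rpl11, Rps2, Rpl13 and Rpl37a. It was soft-masked at all 6 and is the most common such stretch in the optimal list, with 12.9% of all matches there and 7.24% of those in promoter peaks. Rplp0 and Rpl3 shared CAGCAGAGGGCA, which made up 2.10% of matches in the optimal list. Of the soft-masked matches, those of Rplp0 and Rpl38 belong to the strongest 10 peaks of the family, and the Rpl11 match belongs to its second, weaker peak 689 bp upstream.

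The libraries were compared by the rank of the overlapping peak in each 300000-peak list. Of the 60 member peaks, 59 overlapped a peak in both lists, and at 44 of these the ranks were within 2-fold of each other. The median ratio was 1.42 and the largest 5.57, at Rpl10a. Replicate 1 had the better rank at 29 of these peaks and replicate 2 at 30. These rank values were not computed over all promoter peaks, so they do not show whether such agreement is usual. Over the 80 members, promoter peaks in the upper set were found at 52 in replicate 2 and at 45 in replicate 1. Of the 49 highest promoter peaks, 37 (75.5%) overlapped a peak in the upper set of both libraries, against 80.7% over all genes. At percentile 50 or more all 29 were among them, against 99.9% of all genes in that range. Under it 8 of 20 were (40.0%), against 61.3%, and no test was made.

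**Figure D4:**
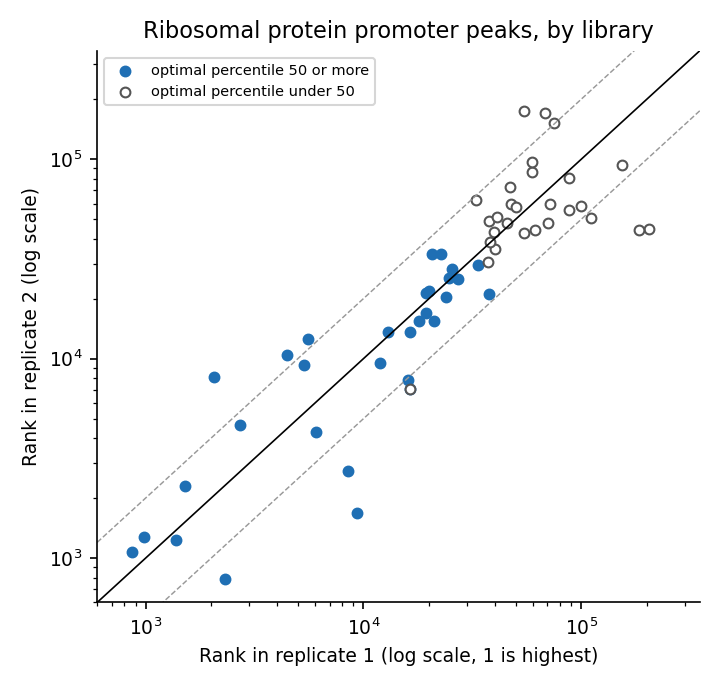
Rank of the overlapping peak in replicate 2 (y axis, log scale) against that in replicate 1 (x axis, log scale; 1 is the strongest of 300000) for the 59 ribosomal protein promoter peaks found in both libraries, filled where the optimal percentile is 50 or more. The solid line is equal rank and the dashed lines are 2-fold apart, with 44 of the 59 points between them; both summits of Rpl37 share 1 interval and fall on 1 point.

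Counted in each library alone, replicate 1 had a promoter peak among its upper set at 45 members (56.3%), against 39.1% of all genes. Replicate 2 had one at 52 members (65.0%), against 39.2%. The conservative list had one at 43 members (53.8%), against 36.6%. The share of the family was above that of all genes in each list, while its own value varied by 7 genes between libraries. In that comparison 10 members with an optimal promoter peak lacked one in the upper set of at least 1 library. Replicate 1 lacked Rps12, Rps15a, Rpl13, Rps3 and Rpl37a, replicate 2 lacked Rpl4, Rps10, Rps27a and Rpl39, and both lacked Rplp2.

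The 5 weakest were Rpl29 (1.75), Rpl37a (4.76), Rpl39 (5.87), Rps3 (5.98) and Rplp2 (7.35). Rpl39 lines the exit tunnel, Rps3 forms the mRNA entry with Rps2, and Rplp2 is a stalk protein carried by Rplp0. The overlapping peak of Rpl29 ranked 100228 in replicate 1 and 58501 in replicate 2, and that of Rpl37a ranked 184708 in replicate 1 and 44128 in replicate 2. For Rpl39 the ranks were 59638 in replicate 1 and 97456 in replicate 2, for Rps3 they were 110576 in replicate 1 and 50877 in replicate 2, and for Rplp2 they were 68256 in replicate 1 and 171456 in replicate 2. Each of these 5 optimal peaks thus overlapped a peak outside the upper set of at least 1 library, and none was in the conservative list with the same coordinates. The low places depended on the list. Rpl29 had a promoter peak in the upper sets of both libraries, at percentile 13.5 in replicate 1, where it did not overlap the optimal one, and at 10.7 in replicate 2. It also had one in the conservative list, at 10.8, with coordinates other than those of the optimal one. In the upper set of replicate 2, Rpl37a stood at 32.6 and Rps3 at 22.3, and neither had a promoter peak in that of replicate 1.

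Peak width went with strength in the family much as over all genes. Many intervals in the list have a common width of 330 bp, and 21 of the 49 highest promoter peaks (42.9%) had it, against 53.9% over all genes. All 20 members under percentile 50 had this width, against 98.7% of all genes in that range, and so did 1 of the 29 at 50 or more (3.45%), against 9.33%. The other 28 intervals had a median width of 269 bp and a median percentile of 83.1, against 241 bp and 76.5 over all genes.

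More than 1 promoter peak was found at 10 members (12.5%), against 11.5% of all genes. Rpl3, which reaches the peptidyl transferase centre, had 3, at percentiles 80.2, 67.4 and 40.0. Those described with 2 each were Rpl38 (94.3 and 60.8), Rpl13a (89.3 and 41.2), Rpl11 (89.3 and 31.4), Rpl37 (82.0 and 6.73), Rps19 (71.1 and 0.39), Rps18 (42.2 and 0.29), Rpl18 (38.2 and 1.58) and Rpl13 (7.68 and 1.68). At Rpl37 both summits lay in 1 interval.

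Some of the peaks were not the family's alone. Of the 60, 13 (21.7%) lay within 1 kb of a TSS of another protein-coding gene too, against 8.18% of all promoter peaks. Beside Rps24 and Polr3a these included Rpl3 with Syngr1, Rpl35 with Arpc5l, Rps18 with Vps52, Rps25 with Trappc4, Rpl15 with Nkiras1, Rpl4 with Zwilch and Rps27a with Clhc1. They also included Rps10 with RPS10-NUDT3, whose name joins Rps10 with another gene. A peak near several genes has more chances to count for a member, so the 2 shares are not strictly alike. A protein-coding gene started within 1 kb upstream on the other strand at 3 of 49 members with a promoter peak (6.12%). Without one it was 5 of 31 (16.1%), and over all genes the shares were 9.54% with and 5.09% without. Around the gene 5′ ends, peaks were also denser: a median of 8 optimal peaks lay within 50 kb, against 4 over all genes. Promoter peaks of the gene itself are included in these counts. The place of the ribosomal protein genes in dense neighbourhoods stands beside their higher share of promoter peaks, and its part in that share was not tested.

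By role, both partners of the 5S RNA, Rpl5 (97.3) and Rpl11 (89.3), had a strong peak. Of the stalk proteins, Rplp0 (98.8) had the strongest, Rplp2 (7.35) one of the weakest and Rplp1 none. The 15 genes taken from human Diamond-Blackfan anaemia had a promoter peak at 11 (73.3%), against 61.3% of the family and 39.4% of all protein-coding genes. The median percentile over the 11 was 89.3, against 60.5 over the family and 50.1 over all genes. They included Rps24 and Rps29, described above, Rpl27 (86.1), Rps19 (71.1), Rps26 (60.5), Rpl15 (29.1) and Rps10 (11.8), while Rps7 and Rpl35a were among those with none. The list may not hold every member linked to the disease, and other members could change its share and median. It was chosen with earlier results of these data known, so both values are given only as a description.

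Of 5 genes with developmental phenotypes in mutant mice, 4 (80.0%) had a peak, against 61.3% of the family and 39.4% of all protein-coding genes. They were Rpl38 (94.3), Rps19 (71.1), Rpl24 (69.3), whose mutation gives the belly spot and tail mouse, and Rps20 (60.4). Rps7 had none. Around the peptidyl transferase centre and exit tunnel, Rpl3 (80.2), Rpl10 (62.8), Rpl4 (27.3) and Rpl39 (5.87) had a peak and Rpl17 had none. Of the mRNA entry and decoding proteins, Rps2 (27.4) and Rps3 (5.98) had weak peaks, and Rps23 had none. Rps27a, made as a fusion with ubiquitin, had a peak at 8.60, and Rps6, the protein phosphorylated by S6 kinase, had none. The shares were 80.0% around the peptidyl transferase centre and exit tunnel and 66.7% for mRNA entry and decoding. The groups in this paragraph hold 1 to 5 genes each, so their counts describe single genes and are not results about roles.

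The 4 members whose symbol ends in l (Rpl3l, Rpl10l, Rpl39l and Rps27l) had no promoter peak. Rpl3l is known as a paralog of striated muscle, and Rpl10l and Rpl39l as paralogs of the testis. Without these 4 the share was 49 of 76 (64.5%). Of 8 related symbols that the naming rule leaves out, 2 had a promoter peak. Rps3a1 stood at 99.3 with its summit 30 bp upstream, above every member, and Rpl7l1 stood at 77.5.

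No optimal promoter peak was found at 31 members. Besides those already named they included Rpl6, Rpl7a, Rpl8, Rpl9, Rpl12, Rpl14, Rpl19, Rpl21, Rpl23, Rpl27a, Rpl28, Rpl30, Rpl31, Rpl41, Rps9, Rps13, Rps21 and Rpsa. Most of the 31 had a weaker peak: 26 (83.9%) had a promoter peak in both relaxed library lists, against 40.4% of all genes without an optimal one. Over the whole family, 75 of 80 (93.8%) had one in both relaxed lists, against 63.7% of all genes. The 5 without were Rpl3l, Rps6 and Rps27, with a peak in replicate 1 alone, and Rpl10l and Rpl39l, with none in either library.

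Among the 31, the best relaxed ranks had a median of 99880 in replicate 1, over 29 genes, and 72120 in replicate 2, over 26 genes. The upper set of replicate 1 held a promoter peak of Rpl27a and Rpl8, and that of replicate 2 held one of Rpl28, Rpl35a, Rpl41, Rpl7a, Rplp1, Rps21, Rps27l and Rps9. Rpl7a, a large-subunit protein gene that hosts snoRNAs, had the best of these ranks, 37150 in replicate 2, against 80148 in replicate 1. Rpl27a, Rpl35a and Rps27l had a promoter peak in the conservative list though not in the optimal one. They are 3 of the 31 (9.68%), against 4.15% of all genes without an optimal promoter peak. None of the members named in this paragraph had a promoter peak in the upper set of both libraries. For the upper sets, the shares over all genes without an optimal promoter peak were not computed.

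The nearest optimal summit lay closest at Rpl7a (1184 bp), Rpl14 (1274 bp), Rpl41 (1377 bp), Rpl23 (1406 bp) and Rps28 (1727 bp). It lay farthest at Rpl39l (38786 bp), Rpl10l (24438 bp), Rps6 (16961 bp), Rps9 (11076 bp) and Rpsa (10723 bp). The median over the 31 was 3252 bp, against 10110 bp over all genes without a promoter peak. A CTCF match within 1 kb of the gene 5′ end was present at 23 of the 49 members with a promoter peak (46.9%), against 38.5% of all genes with one. It was present at 5 of the 31 without (16.1%; Rpl14, Rpl17, Rpl35a and Rps13 among them), against 12.02% of all genes without one.

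The promoters of the family share features that the naming rule did not use. The ratio of observed to expected CpG over 1000 bp had a median of 0.782, against 0.558 over all genes. It was 0.759 at members with a promoter peak and 0.816 at those without, while over all genes it was 0.702 with and 0.341 without. The members without a promoter peak had the higher median, the reverse of the order over all genes. The part of CpG content in the family's share of promoter peaks was not tested.

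An annotated TSS that starts with C and 4 pyrimidines, the letters of the terminal oligopyrimidine tract, was present at 34 of 80 members (42.5%), against 8.59%. It was found at 24 of the 49 members with a promoter peak (49.0%) and 10 of the 31 without (32.3%), in the same order as over all genes, where the shares were 11.4% with a promoter peak and 6.73% without. Any 1 matching TSS counted, so genes with more TSSs had more chances. Members had a median of 6 TSSs, against 3 over all genes. Over all genes the median was 5 with a promoter peak and 2 without. The part of TSS number in these shares was not tested. Words were searched on both strands from 250 bases before to 50 after the gene 5′ end. CCGGAAG, the core read by ETS factors such as GABP, was present at 22 members (27.5%), against 10.9% of all promoters. It was held by 10 of 49 members with a promoter peak (20.4%) and 12 of 31 without (38.7%). Over all genes the order was the other way round, with 14.8% of genes with a promoter peak and 8.29% of those without. GGGCGG, the core read by Sp1, was present at 36 members (45.0%), against 43.4%, and AAGATGGC, read by YY1, at 5 (6.25%), against 2.93%. None of the words contains another on either strand, and a word in a promoter does not show that the factor was bound.

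Many members host small nucleolar RNAs, which guide modification of ribosomal RNA, in their introns. An annotated snoRNA gene lay inside 29 of 80 members (36.3%), against 1.28% of all genes. The share was alike among the 49 with a promoter peak (18 genes, 36.7%) and the 31 without (11 genes, 35.5%).

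Other genes of the translation pathway were counted in the same way. A promoter peak was present at 21 of 37 ribosome biogenesis genes (56.8%), with a median percentile of 62.3, and 5 of the 37 stood at 90 or more. They were led by Ubtf (99.0), the factor that opens ribosomal DNA, Nob1 (98.9), which trims the small-subunit RNA, and Rrp9 (98.8), part of the U3 particle. Mitochondrial ribosomal protein genes, which serve the ribosome of the organelle, had one at 36 of 78 (46.2%), with a median of 52.9. Of the 78, 9 stood at 90 or more, led by Mrpl34 (98.0) and Mrps33 (97.9). For comparison, 10 of the 80 ribosomal protein genes (12.5%) and 4.26% of all protein-coding genes stood at 90 or more. Strong promoter peaks were thus not particular to the ribosomal protein genes.

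Translation initiation factors, taken as all symbols of Eif and a digit, had a promoter peak at 30 of 54 genes (55.6%), with a median percentile of 35.4. Taken by symbol, the list also holds regulators such as Eif4ebp1 and Eif4ebp2, which are in the growth signalling list too. Eif6 is likewise in both this list and the biogenesis list. The 2 of the 54 at 90 or more were Eif3g (94.2) and Eif3f (91.5), subunits of the complex that loads mRNA on the small subunit. Elongation factors and their modifiers had one at 8 of 13 (61.5%), with a median of 44.0 and none at 90 or more. Genes of growth signalling and promoter factors had one at 6 of 13 (46.2%), with Myc, a driver of ribosome production, at 70.4. All 5 lists lay above the 39.4% of all protein-coding genes, and the elongation list alone was as high as the ribosomal protein genes. No test was made of these differences.

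**Figure D5:**
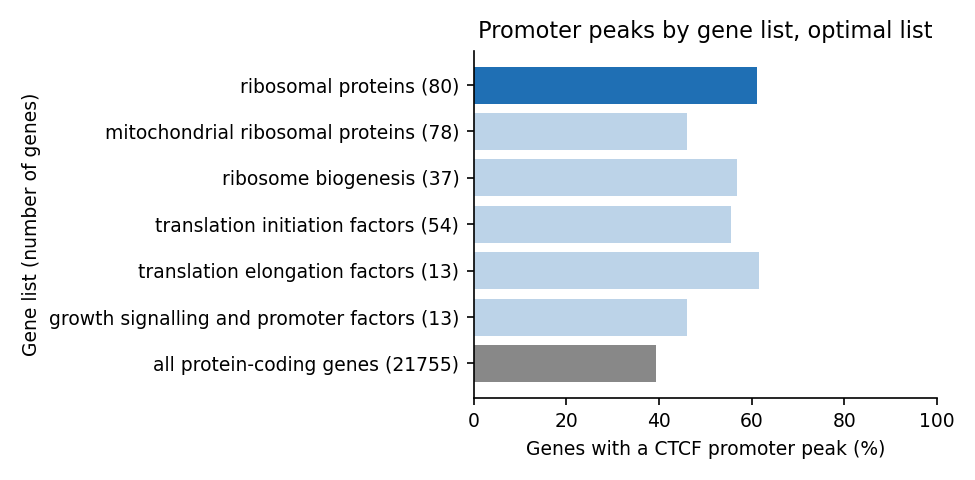
Share of genes with a CTCF promoter peak in the optimal list (x axis, %) for the ribosomal protein genes, 5 other lists of the translation pathway and all protein-coding genes (y axis, with the number of genes). The shares are 61.3% for ribosomal proteins, 46.2% for mitochondrial ribosomal proteins, 56.8% for biogenesis, 55.6% for initiation, 61.5% for elongation, 46.2% for growth signalling and 39.4% for all genes.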

How the data were processed

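CTCF peaks came from 2 ChIP-seq libraries of newborn mouse kidney, 1 group, so no group comparison or p-value was computed. The authors deposited 5 lists in narrowPeak format on mm10; the signal value of each peak is their caller's own, and the summit is a deposited offset from the interval start. Per the deposited notes, each list also used 1 further alignment file. The sources used here do not give the aligner, caller, filters or reproducibility threshold. Because signal scales with depth, which is unknown, it served only as a percentile or rank within a list. The members and lists were chosen with earlier results of these data known.

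Coordinates are mm10, 1-based, read with the GRCm38.p6 genome and GENCODE M21. Reference values cover all 21755 protein-coding genes on chromosomes 1 to 19 and X, the members included. The CTCF matrix came from odd-numbered chromosomes, soft-masked bases left out, against windows 2 kb away; 66.6% of peaks on the other chromosomes and 2.35% of their control windows held a match. Library peaks were matched by an overlap of at least 1 bp with bedtools 2.31.1; other steps used Python 3.11.15, numpy 2.4.6, pandas 2.3.3 and pysam 0.24.0. RefSeq promoters matched 60 of the 80 members. Promoter assignment and motif search were tested on simulated data. Genes are not replicates, and neighbours can share a peak. Named with values are members at percentile 90 or more, the 5 weakest, and members lacking a promoter peak in a library's upper set. So are those with several promoter peaks and the role groups. The members without an optimal promoter peak that have the 5 nearest and 5 farthest optimal peaks are named too. Some members are counted in every total but are not reported by name here.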

Additional observations from a re-analysis of the deposited data

How the results depend on the processing

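The 49 ribosomal protein genes with a promoter peak varied little except under the 50% of peaks with the highest signal, which left 29 genes, with a median percentile of 82.0, a motif share of 61.3% and a median distance of 144 bp. From 1 library alone, the counts ran from 45 to 52 genes, the median percentile from 59.2 to 67.7, the motif share from 34.2% to 41.8% and the median distance from 142.5 to 153 bp, against 158 bp in the optimal list. A window of 500 bp gave a motif share of 34.7% and a distance of 133.5 bp, and one of 2500 bp gave 50% and 291.5 bp. The distance was 144 bp in the conservative list and 236.5 bp from the gene 5′ end alone. The motif share was 15.0% with the matrix learned from all sequence and 3.33% with the stricter score; the cause was not tested. The remaining 27 recomputed values for these results stayed within the spread between libraries or within 1.5 times of the count. In every alternative the share of ribosomal protein genes with a promoter peak was above that of all protein-coding genes. The shares rest on few genes and on peaks from 1 biosample, and the lists give no depth. No paired analysis was possible because the samples form 1 group.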

Other observations

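Processed pseudogenes of ribosomal protein genes carry copies of the mRNA without its promoter. Of 294 annotated processed pseudogenes with a ribosomal protein symbol ending in -ps and a number, 10 (3.40%) had an optimal summit within 1 kb of their 5′ end, against 368 of 10142 processed pseudogenes of any gene (3.63%). The 3 strongest were Rpl5-ps2 (percentile 97.5, summit 747 bp upstream), Rps19-ps10 (96.6, 358 bp upstream) and Rpl34-ps1 (94.1, 734 bp downstream). Measured in the same way, from the gene 5′ end alone, the share of the parent genes was 55.0%. It was 61.3% when any annotated TSS counted. No test was made.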
